A study of Mus musculus with 28 samples.

Results

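LIM homeobox genes encode transcription factors that give neurons, the pituitary, the limb and other organs their identity. The 10 genes described here are Lhx1, Lhx5, Lhx2, Lhx9, Lhx3, Lhx4, Isl1, Isl2, Lmx1a and Lmx1b, out of 21887 protein-coding genes in the gene table, and other members of the family were not analysed here. They were chosen by name, with earlier results of these data known. For each, the CUT&RUN regions that overlapped the gene body or the 50 kb on either side of it, called the window below, were collected. The windows held 25 of the 5430 H3.3 regions and 7 of the 57844 H3K27ac regions on assembled chromosomes.

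The regions come from the male mouse embryonic stem cell line ES-E14TG2a (E14), in which H3.3, H3K27ac, H3K122ac and a control without primary antibody were mapped in 28 libraries, 7 per target. In CUT&RUN an antibody holds a nuclease at its target in nuclei, and the DNA released is sequenced. H3.3 is a histone H3 variant encoded by H3f3a and H3f3b, and H3K27ac is a histone acetylation of active promoters and enhancers. Each target had 2 wildtype libraries and 5 from mutants. The mutants carry A alleles, named for the K122A substitution of H3.3 in the study's title. They were H3f3a_AA_H3f3b_WTWT (1 library), H3f3a_WTWT_H3f3b_AA (1), H3f3a_WTA_H3f3b_AA (1) and H3f3a_AA_H3f3b_WTA (2, from clone1 and clone2). All cells received no treatment. They grew on gelatin in medium with serum and LIF. The labels also describe a medium with added GSK and MEK inhibitors without saying which libraries it applies to.

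The data used here are consensus positions, in a list for each of these marks. No height or per-library value comes with a position, so the genotypes cannot be compared, there are no replicates behind any count, and depth is unknown. Which genotypes contributed to a region is not given. A region that is absent from a list may lie below the authors' threshold. As a check of the cell type, all 8 embryonic stem cell markers examined, Pou5f1, Sox2, Nanog, Esrrb, Klf4, Zfp42, Tfcp2l1 and Tdgf1, had an H3K27ac region within 1 kb of a gene end. Of the other markers, H3K27ac was found at 2 of 5 neural genes (Tubb3 and Mapt) and 1 of 4 primitive endoderm genes (Sparc). It was found at 0 of 3 trophoblast genes and 1 of 4 fibroblast genes (Thy1). Over all protein-coding genes the share was 38.8%, and the neural count was near it.

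A LIM homeodomain protein binds DNA through its homeodomain and partner proteins through a pair of LIM domains, which dock on the adaptor LDB1. Combinations of these factors specify neuron types, the best known being ISL1 with LHX3 in motor neurons. The genes are read here as 5 pairs of close paralogues. Genes of this kind are classical targets of Polycomb repression in embryonic stem cells, but neither Polycomb marks nor transcripts were measured in these files.

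H3.3 regions lay over most of the family, and H3K27ac regions were absent from the gene bodies and rare close to them. An H3.3 region was present in the window of 9 of the 10 genes (exact 95% binomial interval 55.5 to 99.7%), where 41.3% of all protein-coding genes had one. An H3K27ac region was present in the window of 3 of the 10 (6.67 to 65.2%), against 73.2% of all protein-coding genes. This contrast holds close to the genes only. With 10 kb on either side the count was 1 of 10 (59.3% of all), and with 100 kb it was 8 of 10 (80.5% of all). The intervals cover counting over genes only. They treat the 10 genes, which were chosen by name, as independent draws, and no test was made. H3.3 without any H3K27ac in the window was found at 6 of the 10, a state shared by 2.70% of all protein-coding genes. With 100 kb on either side only Lhx4 was in this state (1 of 10, against 1.9% of all), and with 10 kb 8 of 10 were (4.04% of all). The 6 at 50 kb were Lhx5, Lhx9, Lhx4, Isl2, Lmx1a and Lmx1b. Lhx1, Lhx2 and Lhx3 had both marks in the window, and Isl1 had neither, as did 24.1% of all protein-coding genes.

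Within the genes themselves no H3K27ac region was listed. All 9 genes with H3.3 had it inside the gene body (16.1% of all protein-coding genes did), and 0 of 10 had H3K27ac there (48.4% did). Each gene end was also examined with 1 kb on either side. H3.3 was present at an end of 7 genes (16.0% of all protein-coding genes) and H3K27ac at an end of none (38.8%). Lhx3, Lhx4 and Isl1 had no H3.3 at an end. Of the H3.3 length in the windows, 82.6% lay in the gene bodies and 99.7% within 10 kb of them, so the wider windows added little.

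**Figure D1:**
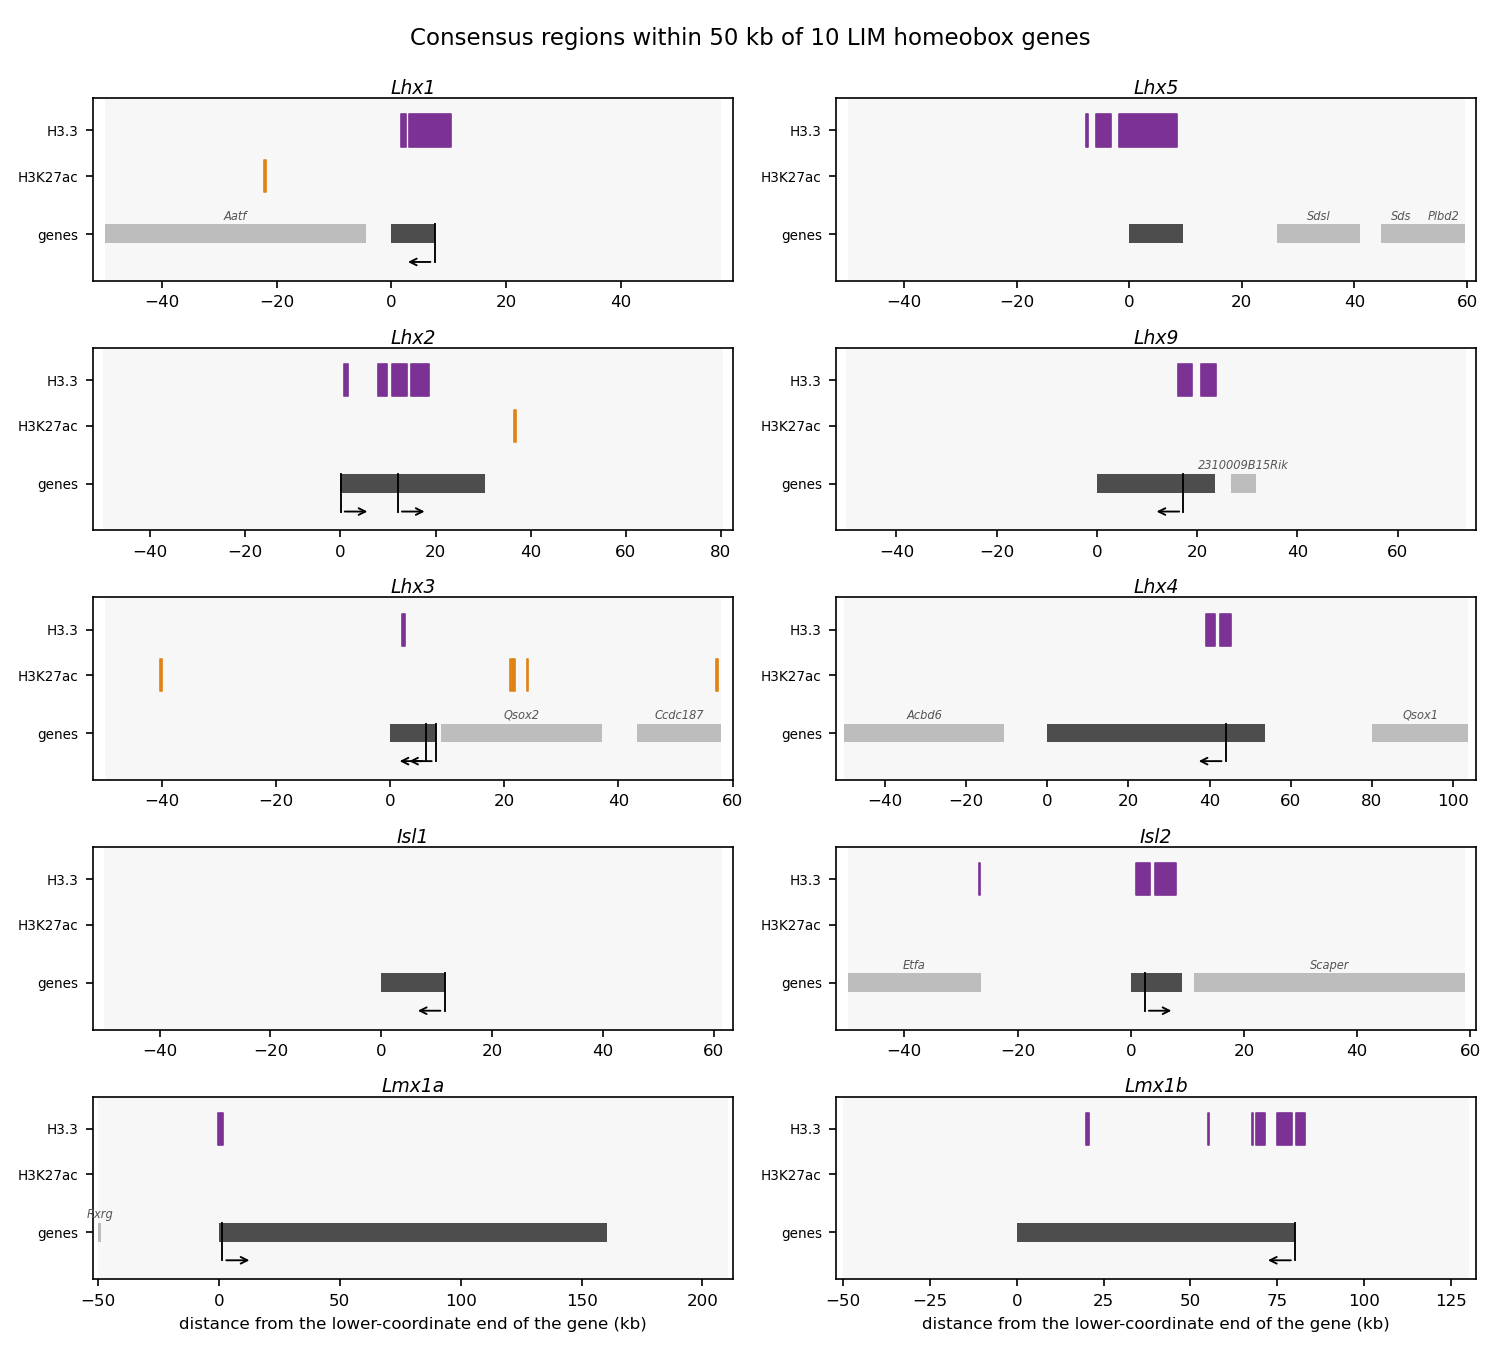
Maps of the 10 loci, each with its own horizontal axis in kb from the gene's lower-coordinate end. Purple blocks are H3.3 regions, orange blocks are H3K27ac regions (outlines make the shortest ones look wider than their true length), the dark bar is the gene, grey bars are protein-coding neighbours, and arrows are annotated starts with their direction (none is drawn for Lhx5). H3.3 lies on the gene in every panel but that of Isl1, and the 7 H3K27ac regions, in the panels of Lhx1, Lhx2 and Lhx3, all lie off the gene.

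The H3.3 regions of these genes were wide. Of the 25 regions, 15 measured 2 kb or more (6.11% of all H3.3 regions did), and their median width was 2500 bp against 451.5 bp over all H3.3 regions. These 15 regions, in the windows of 8 genes, made up 4.52% of the 332 H3.3 regions of that width, while the 25 made up 0.46% of all H3.3 regions. A region that wide was present in the window of 2.28% of protein-coding genes. The windows of 7 of the 10 held at least 2 H3.3 regions, as 19.7% of all did. The length covered by H3.3 had a median of 6182.5 bp per window over the 10 genes. It was 0 over all protein-coding genes and 749 bp over those with any H3.3 region. By this length 5 of the 10 ranked in the top 1% of protein-coding genes and 7 in the top 5%. The order was Lhx5, Lmx1b, Lhx2, Lhx1, Isl2, Lhx9, Lhx4, Lmx1a, Lhx3 and Isl1. The windows differed in length, from 108 to 261 kb. By the covered share of the window Lhx5 was still first (12.0%), followed by Lhx1 (7.77%), Lhx2 (7.23%) and Lmx1b (6.33%). The order of the others did not change. With 1 list and no replicates, it cannot be said which neighbours in either order differ beyond error.

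**Figure D2:**
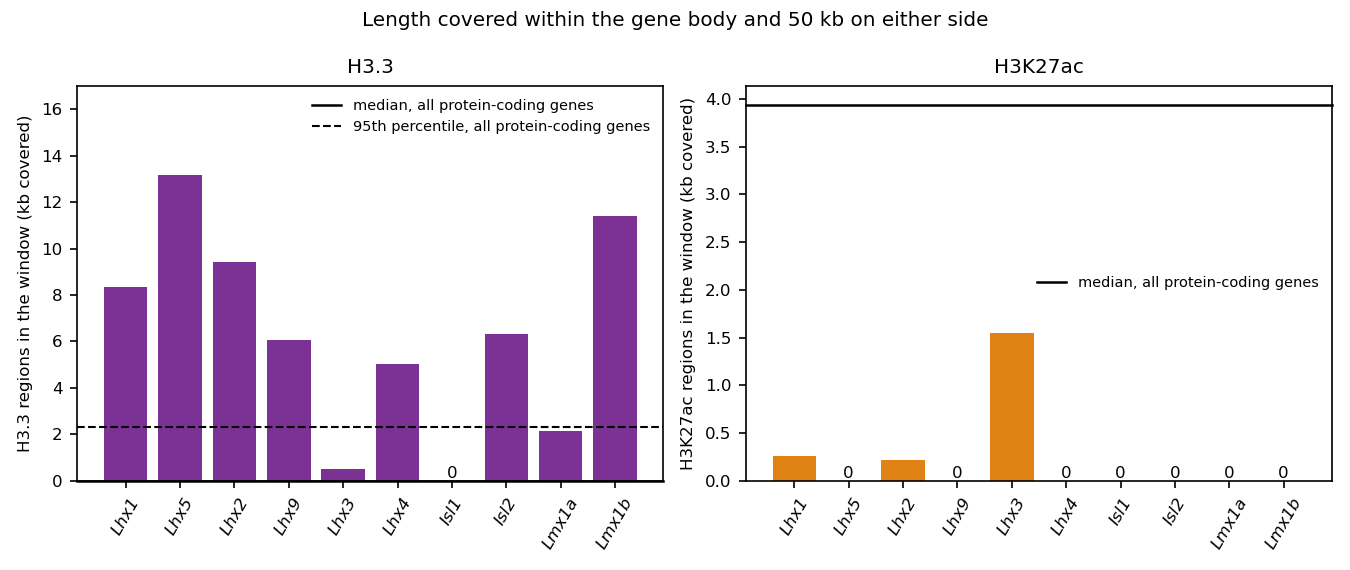
Length covered by H3.3 regions (left) and H3K27ac regions (right) in each gene's window, in kb, on vertical scales that differ. The solid line is the median over all protein-coding genes, which is 0 for H3.3, and the dashed line is the 95th percentile for H3.3. The bars of 7 genes pass the dashed line, that of Lmx1a ends just below it, and every H3K27ac bar is below the median.

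Lhx1 and Lhx5, which act in the forming head and forebrain and together in Purkinje cells of the cerebellum, carried the widest regions of the family. At Lhx1 (chromosome 11, 84517975 to 84525534, mm10) a region of 7458 bp reached from 84521011 to 84528468, and a second of 903 bp lay 403 bp away inside the gene. Together they covered 71.8% of the gene body. The large region ran past the start of Lhx1 into Lhx1os, a long noncoding RNA gene beside it. At Lhx5 (chromosome 5, 120431886 to 120441457) the region from 120430086 to 120440445 measured 10360 bp and covered 89.4% of the gene body, a larger share than in any other of the 10. Regions of 2604 and 207 bp followed outside the gene, 3221 and 7397 bp from it, over the noncoding genes Gm27199 and Gm31976. The summed H3.3 length was 13171 bp in the Lhx5 window and 8361 bp in that of Lhx1. The pair was thus alike in being covered over most of the gene and beyond 1 end of it.

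Lhx2 and Lhx9 were covered in several blocks. Lhx2 (chromosome 2, 38339271 to 38369737), needed for the forebrain and eye, held 5 regions of 571, 270, 1842, 3081 and 3667 bp, all inside the gene. They ended at 38357837, well short of the gene's higher-coordinate end. Lhx9 (chromosome 1, 138825186 to 138848839), needed to form the gonad, held regions of 2979 and 3072 bp near its higher-coordinate end, the latter crossing that end. H3.3 covered 31.0% of the body of Lhx2 and 24.8% of that of Lhx9.

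Lhx3 and Lhx4, paralogues that act in pituitary development, stood far apart. Lhx3 (chromosome 2, 26200212 to 26208249), also a motor neuron factor, held a single H3.3 region of 487 bp, from 26202352 to 26202838, inside the gene. This width is near the middle of the H3.3 list, of which 52.9% was narrower. Lhx4 (chromosome 1, 155698031 to 155751726) held regions of 2259 and 2773 bp, both inside the gene and 1159 bp apart. The window of Lhx4 thus held 10.3 times the H3.3 length of the Lhx3 window, 5032 against 487 bp. The Lhx4 window is the longer, and the covered shares were 3.27% at Lhx4 and 0.451% at Lhx3.

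Isl1 and Isl2, both motor neuron factors, differed in whether any H3.3 region was listed in the window. Isl2 (chromosome 9, 55538677 to 55547667) held regions of 2500 and 3607 bp that covered 67.9% of its body. A further region in its window, of 207 bp, lay in the neighbouring gene Etfa, which encodes a mitochondrial electron transfer protein. Isl1 (chromosome 13, 116298270 to 116309688), which also acts in heart progenitors and pancreatic islets, had no region of either list in its window. The nearest H3.3 region lay 911 kb away on the higher-coordinate side and 1.84 Mb away on the other. The nearest H3K27ac regions lay 905 kb and 1.33 Mb away. No protein-coding gene lies close to it, the nearest being Parp8 at 541 kb on the higher-coordinate side and Itga1 at 1.2 Mb on the other. Of all protein-coding genes, 13.6% lay farther than Isl1 from an H3.3 region and 3.34% lay farther from an H3K27ac region.

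Lmx1a and Lmx1b, which act together in midbrain dopamine neurons, had different layouts. Lmx1a (chromosome 1, 167688230 to 167848741), a roof plate and dopamine neuron factor, is the longest gene of the 10 and held a single region of 2132 bp at its start, so that H3.3 covered 1.17% of its body. Lmx1b (chromosome 2, 33560965 to 33641208), which also sets dorsal identity in the limb, held 6 regions, more than any other of the 10. Those of 2638, 4595 and 2641 bp lay toward its start, the last of them 24 bp outside the gene and over the noncoding gene C130021I20Rik. Those of 840, 483 and 215 bp lay deeper in the gene. The Lmx1b window held 11412 bp of H3.3, which is 5.35 times the 2132 bp of the Lmx1a window. The Lmx1a window is the longer, and the covered shares were 6.33% at Lmx1b and 0.818% at Lmx1a.

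Annotated starts give a finer view than gene ends. The RefSeq promoter table (GRCm38.p6, whose primary chromosomes carry mm10 coordinates) held 11 starts for 9 of the 10 genes. An H3.3 region covered 6 of the 11 starts, and 7.19% of the 21263 starts of protein-coding genes were covered. H3K27ac covered none of the 11, against 18.3% of all. The covered starts were those of Lhx1, Lhx9, Lhx4, Isl2 and Lmx1a and the second start of Lhx2. That of Lhx1 is at an annotated end of the gene. The others lie inside their gene bodies, as at 38351308 in Lhx2 and 155742027 in Lhx4. A gene such as Lhx4 can therefore have a covered start and no H3.3 at an end. At each covered start the region ran to both sides of the start. It reached 2934 bp upstream and 4523 bp downstream of it at Lhx1, and 1284 bp upstream and 1488 bp downstream at Lhx4.

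At the uncovered starts H3.3 was near in some genes and distant in others. The start of Lmx1b, at 33641098, lay in a gap of 883 bp between the regions of 4595 and 2641 bp, 134 bp from the nearer. The first start of Lhx2, at 38339281, lay 632 bp from the region of 571 bp. The starts of Lhx3 lay 5411 and 3737 bp from the only H3.3 region of that gene. The start of Isl1 was as far from H3.3 as the gene itself.

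The sequence upstream of 4 of these starts is printed from RefSeq. It shows how H3.3 and CpG content, a feature of developmental gene promoters, lay in the family. Lhx1 is covered by an H3.3 region, Isl1 is the gene without a listed H3.3 region, Lhx3 has its H3.3 region elsewhere in the gene, and Lmx1b lies at the edge of a region. The runs are the bases outside the annotated gene, on the minus strand of GRCm38.p6, 5′ to 3′, with each CG in capitals. They are chr11:84525535-84525784 for Lhx1, chr13:116309689-116309938 for Isl1, chr2:26208250-26208499 for Lhx3 and chr2:33641209-33641348 for Lmx1b.
Lhx1: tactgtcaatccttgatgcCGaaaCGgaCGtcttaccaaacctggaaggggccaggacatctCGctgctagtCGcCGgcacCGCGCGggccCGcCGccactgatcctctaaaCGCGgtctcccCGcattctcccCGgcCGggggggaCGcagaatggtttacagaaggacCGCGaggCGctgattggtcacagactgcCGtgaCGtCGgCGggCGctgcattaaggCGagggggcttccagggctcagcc
Isl1: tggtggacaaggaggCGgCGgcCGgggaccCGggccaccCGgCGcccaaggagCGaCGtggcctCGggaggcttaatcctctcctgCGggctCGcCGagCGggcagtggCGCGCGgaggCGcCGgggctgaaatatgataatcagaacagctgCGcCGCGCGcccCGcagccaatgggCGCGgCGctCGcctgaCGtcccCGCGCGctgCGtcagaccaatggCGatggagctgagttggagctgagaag
Lhx3: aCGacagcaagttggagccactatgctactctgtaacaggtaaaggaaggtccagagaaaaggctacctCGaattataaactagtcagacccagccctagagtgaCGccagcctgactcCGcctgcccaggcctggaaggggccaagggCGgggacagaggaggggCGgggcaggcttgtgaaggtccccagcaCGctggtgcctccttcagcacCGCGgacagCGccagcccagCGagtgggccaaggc
Lmx1b: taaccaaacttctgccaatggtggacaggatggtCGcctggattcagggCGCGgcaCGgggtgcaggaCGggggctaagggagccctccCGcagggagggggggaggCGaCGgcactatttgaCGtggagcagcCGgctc
H3.3 covered all 250 bases of the Lhx1 run, which holds 26 CG, and none of the Isl1 run, which holds 33 in the same length. The Lhx3 run holds 11 in 250 bases and had no H3.3. The Lmx1b run holds 10 in 140 bases, of which 117 bases lay in an H3.3 region. This run lies beyond the gene's annotated end at 33641208. The bases between that end and the start at 33641098 are not printed and had no H3.3.

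Over the 300 bases around each start (250 before it and 50 after), the 11 starts had a median of 24 CG against 13 over all starts of protein-coding genes, of which 95.4% held at least 1. CG was searched as written, which reads the same on both strands. The counts ran from 6 at Lhx9 to 37 at Isl1, and 92.7% of all starts had fewer than Isl1. Lhx9 with 6 and Lmx1a with 12, both at starts inside the gene body, were covered by H3.3. Isl1 with 37 and the first start of Lhx2 with 34 were not. Over all protein-coding genes, H3.3 covered 0.182% of starts with 0 to 4 CG and 4.89% of those with 5 to 13. The share was 14.3% with 14 to 24 CG and 10.4% with 25 to 67. Of the 11 starts of the family, 3 fell in the range of 5 to 13, 3 in that of 14 to 24 and 5 in that of 25 to 67, with 2 covered in each.

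**Figure D3:**
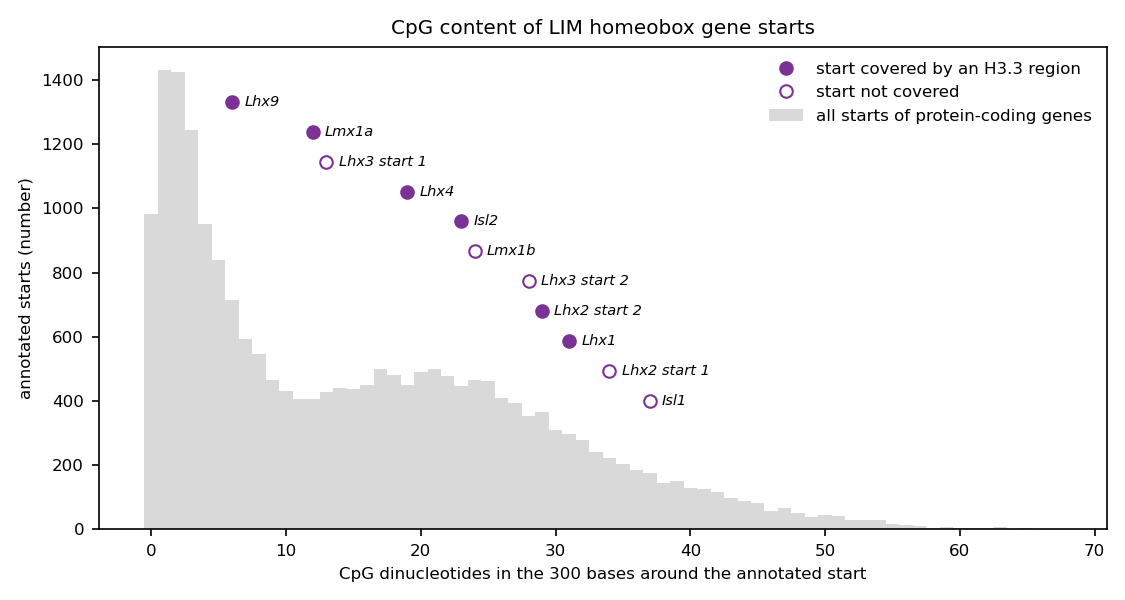
Number of CpG dinucleotides in the 300 bases around annotated starts. Grey bars count all starts of protein-coding genes, and points mark the 11 starts of the LIM homeobox genes, filled where an H3.3 region covers the start (their height only separates the names). Filled points run from Lhx9 (6) to Lhx1 (31) and open points from the first start of Lhx3 (13) to Isl1 (37), so they overlap in the middle of the range.

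H3.3 and H3K27ac did not meet at these genes. Of the 25 H3.3 regions, 0 touched an H3K27ac region by 1 bp or more, and 0 lay within 1 kb of one. A count of 0 in 25 allows a share of up to about 12%, an approximate limit (3 divided by 25) for counting error only. It treats the regions as independent, although regions of a gene share a locus. Over all H3.3 regions, 47.5% touched one, but the share depended on width. Among the 332 of 2 kb or more 6.93% did, beside 0 of the 15 in the windows of the family. Among H3.3 regions under 2 kb 50.1% did, beside 0 of the 10 in those windows. The distance from an H3.3 region to the nearest H3K27ac region ran from 18.0 kb, at Lhx2, to 189 kb, at Lmx1a, with a median of 73.0 kb. The median was 23.9 kb over all 2851 H3.3 regions that touched none and 70.2 kb over the 309 of these that measured 2 kb or more.

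**Figure D4:**
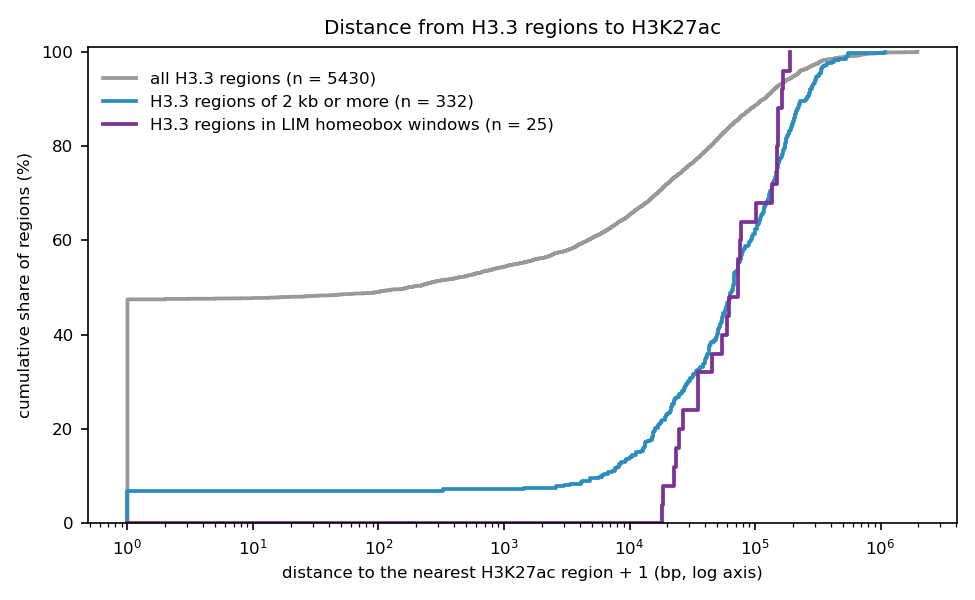
Cumulative share of H3.3 regions by their distance to the nearest H3K27ac region (1 bp added, log axis), for all 5430 regions (grey), the 332 of 2 kb or more (blue) and the 25 in the LIM homeobox windows (purple). The grey curve starts at 47.5%, which touch H3K27ac, the blue at 6.93%, and the purple stays at 0 until 18.0 kb and then runs beside the blue.

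The few H3K27ac regions in the windows were short and mostly lay inside neighbouring genes. Which gene they act on was not tested. Their 7 widths ran from 218 to 539 bp, with a median of 235 bp against 812 bp over all H3K27ac regions. Of the 5 in the Lhx3 window, 3 lay in Qsox2, which encodes a sulfhydryl oxidase and adjoins Lhx3, and 1 in Ccdc187. The fifth, of 314 bp, lay 39996 bp from Lhx3 and touched no annotated gene. The region in the Lhx1 window, of 259 bp, lay in Aatf, an apoptosis antagonist gene. The region in the Lhx2 window, of 218 bp, from 38375855 to 38376072, touched no annotated gene and lay 6118 bp beyond the gene's higher-coordinate end, the shortest distance from H3K27ac to any of the 10 gene bodies.

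For the remaining genes the nearest H3K27ac region lay outside the window. It was 54.8 kb from Lhx9, 60.6 kb from Lhx5 in Plbd2, 67.4 kb from Lmx1a and 72.1 kb from Isl2 in Etfa. At Lmx1b the distance was 82.2 kb and at Lhx4 it was 125 kb, in Acbd6. Plbd2, Etfa and Acbd6 are among the protein-coding neighbours drawn in the maps of the loci.

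Partner genes of the family were read at gene ends, within 1 kb, against 16.0% of protein-coding genes with H3.3 and 38.8% with H3K27ac. The cofactors through which LIM domains act had H3K27ac at an end of 3 genes and H3.3 at an end of 1. Of the 6 cofactor genes, 3 had H3K27ac alone: the adaptor gene Ldb1 (3646 bp), Ssbp4 (1502 bp), which encodes an LDB1-binding protein, and Rlim (246 bp), which encodes a ubiquitin ligase of LDB1. Ssbp2 had H3.3 alone (299 bp), and Ldb2 and Ssbp3 had neither at an end. H3K27ac regions covered 62641 bp of Ssbp3 and 954 bp of Ldb2, counted with 1 kb on either side. Of the 4 LIM-only genes, which encode LIM domains without a homeodomain, Lmo4 had both marks (H3.3 over 600 bp, H3K27ac over 202 bp), and Lmo1, Lmo2 and Lmo3 had neither at an end. Away from the ends, H3.3 covered 1245 bp of Ldb1 and 1459 bp of Lmo1.

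Genes that act with LIM homeodomain factors in the nervous system mostly had H3.3 without H3K27ac at an end. The state was not particular to them. Among the cell type markers it was found at 3 of 5 neural, 2 of 4 primitive endoderm and 2 of 3 trophoblast genes. It was found at 0 of 8 embryonic stem cell and 0 of 4 fibroblast genes. In the motor neuron list 7 of 9 had H3.3 and 0 had H3K27ac. The widest regions were at Olig2 (4543 bp), Nkx6-1 (3796 bp), Neurog2 (3164 bp) and Mnx1 (2204 bp), all transcription factor genes. Chat and Slc18a3, which make and package acetylcholine and share a locus, also had H3.3, while Neurod4 and Slc5a7 had neither mark. In the midbrain dopamine list 6 of 9 had H3.3, widest at Msx1 (7198 bp), Otx2 (5078 bp), Wnt1 (3757 bp) and Foxa2 (3645 bp). Nr4a2 had H3K27ac alone at an end (210 bp) but held 3774 bp of H3.3 inside the gene. The dopamine synthesis and transport genes Th and Slc6a3 had neither at an end, and Slc6a3 held 452 bp of H3K27ac regions inside the gene.

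The pituitary and the kidney and limb lists were mixed. In the pituitary list 5 of 8 had H3.3, among them Pitx1 (7830 bp) and Gata2 (5100 bp), both transcription factor genes. Hesx1 (256 bp of H3.3) and the hormone precursor gene Pomc (208 bp) had both marks, Cga, the shared hormone subunit gene, had H3K27ac alone (865 bp), and Pou1f1 had neither. In the kidney and limb list 4 of 9 had H3.3, at Wt1 (3561 bp), Fgf8 (2203 bp), Pax2 (1674 bp) and Wnt7a (438 bp). None had H3K27ac at an end, but Pax2 held 1137 bp of H3K27ac regions inside the gene. Col4a3 and Col4a4, collagen genes of the kidney filter, had neither, and nor did Fgf10. Nphs1 had neither at an end but held 6167 bp of H3K27ac regions inside the gene. Chat with Slc18a3, and Col4a3 with Col4a4, are neighbours and do not count separately.

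The genes most like the family outside it were sought by the H3.3 and H3K27ac length in the gene body with 1 kb and with 50 kb added (4 values on a log10 scale, Euclidean distance to the family's median). Among the 5 nearest were Wt1, Cyp26b1, Hmx1 and Tlx1, with 6176, 6195, 6627 and 7106 bp of H3.3 in the wider window and 0 bp of H3K27ac in each. The family's median was 6182.5 bp and 0 bp. Wt1, Hmx1 and Tlx1 encode developmental transcription factors, and Cyp26b1 encodes an enzyme that degrades retinoic acid.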

How the data were processed

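The authors deposited consensus regions as positions without a score (5446 regions for H3.3 and 57857 for H3K27ac). Per the submitters' processing notes, the tools were Bowtie2, SAMtools, deepTools and MACS2 and the build mm10, with no roles or versions. How libraries were combined, and with which threshold, is not given in the sources used here. Per the labels' protocols, H3.3 and H3K27ac libraries differed in nuclease fusion and in stop buffer, so the lists do not compare amounts. Starts were raised by 1, and 16 H3.3 and 13 H3K27ac regions off the 21 assembled chromosomes were left out. Columns of other samples numbered 0.

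Gene bodies came from the RefSeq table of GRCm38.p6, which gives no exons, and starts from its promoter table, which matched 9 of the 10 genes and 17492 protein-coding genes. A region counted as in a window if it overlapped it by 1 bp or more, and distances run from edge to edge. Overlaps were computed with Python 3.11.15 and pandas 2.3.3, and were checked on simulated regions. The intervals for counts of genes are exact (Clopper-Pearson, SciPy 1.17.1). The limit for 0 of 25 regions is approximate, as 3 divided by 25.

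Members and lists were chosen with earlier results of these data known. Named were the 10 genes, neighbours whose body or 1 kb flank held a region, up to 4 genes with and 4 without a region per list, and the 5 genes nearest the family's median. Remaining members of the short lists were named after their values were seen. Some genes that this rule takes are left out of the text.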

Additional observations from a re-analysis of the deposited data

How the results depend on the processing

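The H3.3 results held their size. The number of genes with H3.3 was 8 or 9 of 10, and the median H3.3 length 5646 to 6182.5 bp, with windows of 10 or 100 kb, the gene body alone, the wider 50% of regions, or 50 kb on either side of the gene's middle (a setting chosen after seeing the data), and the number was 9 when the region's centre had to lie in the window. Of all protein-coding genes, 25.4% had H3.3 at 10 kb, 51.9% at 100 kb, 16.1% in the body, 25.2% with the wider 50%, 34.2% around the middle and 41.2% by centre. At gene ends H3.3 was present at 5 genes within 500 bp (14.2% of all) and 8 within 2.5 kb (18.4%).

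The count of genes with H3K27ac depended on the window. It was 3 at 50 kb, 1 at 10 kb, 0 in the gene body alone, 8 at 100 kb, and 0 with the wider 50% of regions. The share of all protein-coding genes moved the same way with the window, with 59.3% at 10 kb, 48.4% in the body and 80.5% at 100 kb, and was 63.6% with the wider 50%. The median H3K27ac length was 0 bp, and 1414.5 bp at 100 kb against 8261 bp over all protein-coding genes. The number of genes with H3.3 and no H3K27ac, 6 at 50 kb, was 8 at 10 kb and 1 at 100 kb, settings chosen after seeing the data. Requiring 50% of an H3.3 region to be covered (40.6% of all H3.3 regions), or allowing 1 kb (54.4%), left the number touching H3K27ac at 0.

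No paired analysis was possible because the region lists carry no value per library, and no library was left out. Depth is unknown.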
